A study of Mus musculus with 10 samples.

Results

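Cone opsins and the other proteins of the cone phototransduction cascade were followed through 10 genes, fixed by symbol among the 24736 symbols of the mRNA table: the opsins Opn1sw and Opn1mw, the arrestin Arr3, the transducin subunits Gnat2, Gnb3 and Gngt2, the phosphodiesterase subunits Pde6c and Pde6h, and the channel subunits Cnga3 and Cngb3. All 10 were in the table, and all 10 passed the filter on low values. Whole eyeballs of 4-week-old females were used, of the outbred Kunming stock, and the sample titles carry 14d (day 14). The blue group, 3 libraries (blue A, B and C), came from mice kept under an 18 W blue lamp inside a dark container, and the control group, 2 libraries (control A and B), from mice in natural light. No gene was altered in either group. Whether each library is a different animal is not stated, and the p-values below cover no more than library-to-library spread, possibly technical.

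Cones are the photoreceptors of daylight and colour vision, and in the mouse they are a small minority beside the rods. Light changes the shape of a cone opsin, which activates the cone transducin, and transducin in turn releases the phosphodiesterase from its inhibitory subunit. The phosphodiesterase breaks down cyclic GMP, the cation channel held open by cyclic GMP closes, and arrestin ends the signal at the opsin. Rods run the same steps with their own copies of most of these proteins, so nearly every cone gene has a rod partner.

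Library totals of estimated counts lay between 93202801 and 102602360 in the blue libraries and at 107660103 and 87071487 in control A and B. The ribosomal precursor transcript Rn45s took between 8.69% and 14.4% of the blue libraries, 4.30% of control A and 14.1% of control B. Levels below are CPM after TMM scaling, that is, counts brought to a common library total, and log2 fold changes (log2FC) are blue minus control. The standard error (SE) of a log2FC is its size over the root of F in edgeR's quasi-likelihood test, so it restates that test, and adjusted p is the Benjamini-Hochberg value over all 18988 tested genes. In every one of the 10 cone genes control A stood above control B, by 1.15 to 1.997 times, whereas over all tested genes control A was the higher in 49.8%. Some lists taken up below leaned the same way: 6 of 7 other cone genes, 11 of 13 photoreceptor recovery and support genes and 14 of 20 inner retinal genes. Control A was the higher in 5 of 9 rod partners, 3 of 8 Muller glia genes and 0 of 8 muscle or microglial genes. The part of this gap between the controls in the results was not tested. An eyeball library averages over retina, lens and attached tissue, so fewer cones and less transcript per cone cannot be told apart.

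The cone cascade did not move in one direction. Under blue light Gnb3 rose 3.15-fold and Arr3 fell 1.86-fold, and the other 8 genes did not pass the test. The higher call was 1 of 10 genes, where 0.664% of all tested genes were called higher, and the lower call was also 1 of 10, where 1.55% of all genes were called lower. Over all genes 126 were called higher and 295 lower, and with library totals as the only scaling 124 and 150. At an unadjusted p under 0.05, edgeR had 2 of the 10 cone genes higher and 2 lower, beside 7.03% and 9.27% of all genes. In limma-voom 1 cone gene was called higher and 1 lower, beside 0.69% and 1.72% of all genes. DESeq2 called 1 cone gene higher and 2 lower, the second being Gnat2, against 4.73% and 4.94% of all genes with an adjusted p. All blue libraries lay above both controls for 2 of the 10 genes (15.6% of all tested genes) and below both for another 2 (20.1% of all tested genes). The median log2FC of the 10 was -0.17, beside -0.0056 over all tested genes, and 4 values were positive and 6 negative.

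**Figure D1:**
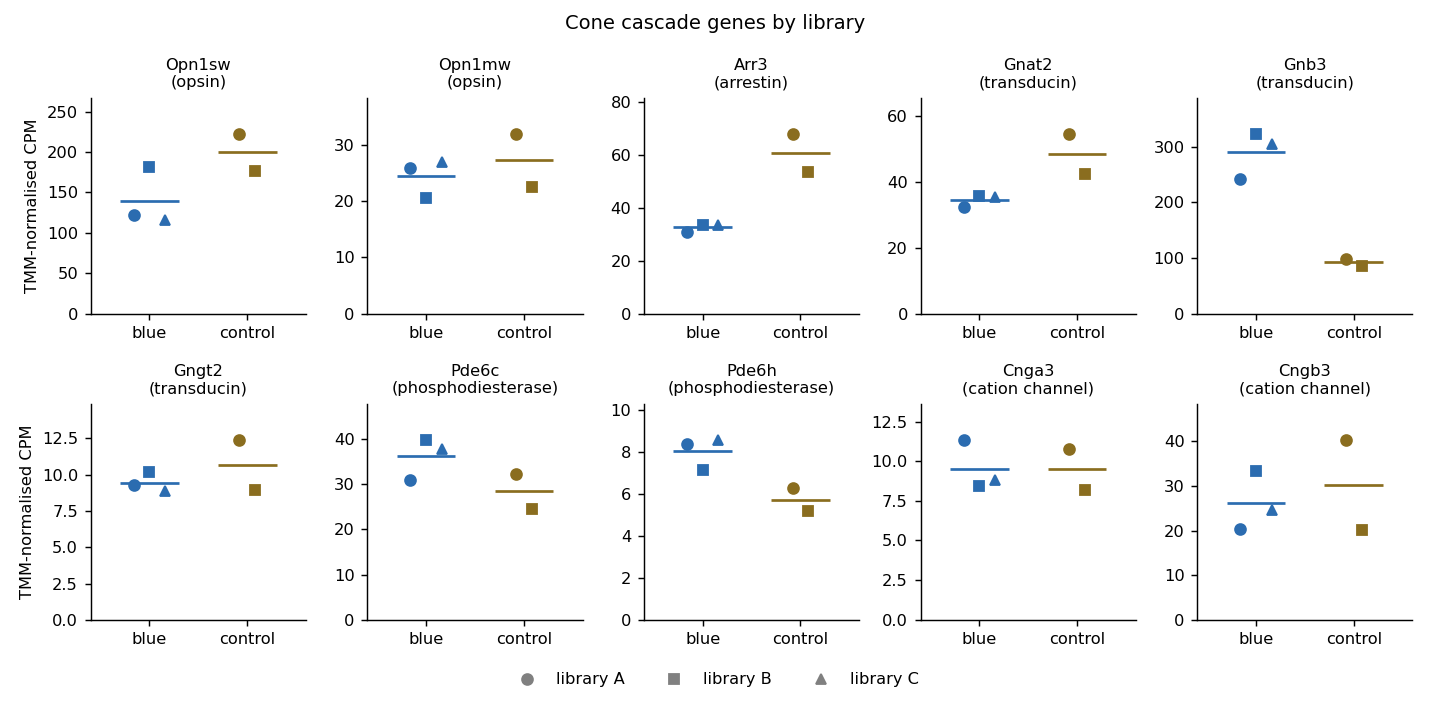
TMM-normalised CPM of each of the 10 cone cascade genes, with 1 point per library, blue libraries on the left and control libraries on the right, horizontal bars at the group means and linear axes from 0. Gnb3 lies above and Arr3 below in all 3 blue libraries, and library A is the higher control in every panel.

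The opsins absorb the light. Opn1sw, the short-wave opsin (chromosome 6, 29376671 to 29380513, GRCm38), had 122, 181 and 116 CPM in blue A, B and C, against 222 and 177 CPM in control A and B. Blue B lay between the controls while blue A and C lay below both, so the groups overlapped. The log2FC was -0.52 (SE 0.22) and did not pass (edgeR adjusted p = 0.322), and without control A it was -0.32. The last 5 bases of Opn1sw are also annotated to Calu, a calcium-binding protein of the secretory pathway, at 204 ± 10.3 CPM in blue and 190 ± 10.3 CPM in control libraries (SD, n = 3 and 2). With both genes summed the log2FC was -0.18, but this sum holds the whole of Calu and is no estimate for Opn1sw alone. Opn1mw, the middle-wave opsin (chromosome X, 74127466 to 74150756), had 25.9, 20.6 and 27.0 CPM in blue A, B and C, against 32.0 and 22.6 CPM in control A and B. Its log2FC was -0.16 (SE 0.19, edgeR adjusted p = 0.751), with 0.14 without control A and -0.39 without control B. The groups overlapped here as well, but the order of the blue libraries was the reverse of that of Opn1sw: blue B was the highest for the short-wave and the lowest for the middle-wave opsin.

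Mouse cones often hold both opsins, in proportions that vary across the retina. The log2 ratio of Opn1sw to Opn1mw counts (pseudocount 1) was 2.23, 3.13 and 2.10 in blue A, B and C, against 2.80 and 2.97 in control A and B. The blue values lay on both sides of the controls. The ratio averaged 2.49 ± 0.56 in blue and 2.88 ± 0.12 in control libraries, a difference of -0.39 (exact two-sided permutation p = 0.400). With 3 libraries against 2 this test cannot go below 0.1. Since gene length enters such a ratio, only its difference between groups is read.

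Arr3 encodes cone arrestin, which binds the activated opsin and ends its signal (chromosome X, 100605480 to 100618493). It had 30.9, 33.7 and 33.5 CPM in blue A, B and C, against 68.1 and 53.6 CPM in control A and B. The blue libraries lay close together and all below both controls. Arr3 fell by 0.90 on the log2 scale (SE 0.12, edgeR adjusted p = 0.0281). The call did not hold when any of the 5 libraries was left out: the log2FC then ran from -1.06 to -0.69 and the adjusted p from 0.0657 to 0.159. With library totals as the only scaling the adjusted p was 0.0615.

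Transducin passes the signal from opsin to phosphodiesterase, and its 3 cone subunits differed. Gnat2, the alpha subunit (chromosome 3, 108086788 to 108101432), had 32.4, 35.9 and 35.4 CPM in blue A, B and C, against 54.7 and 42.4 CPM in control A and B. All blue libraries lay below both controls. The log2FC was -0.49 (SE 0.13), which did not pass in edgeR (adjusted p = 0.137) and passed in DESeq2 (log2FC -0.47, adjusted p = 0.0274). Without control A the log2FC in edgeR was -0.27. 

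Gnb3, the beta subunit of cones (chromosome 6, 124834240 to 124840275), is also the beta subunit through which the glutamate receptor mGluR6 signals in ON bipolar cells, the neurons that receive from photoreceptors. It had 242, 323 and 306 CPM in blue A, B and C, against 98.8 and 85.6 CPM in control A and B. The lowest blue library stood well above the higher control. Gnb3 rose by 1.65 (SE 0.15, edgeR adjusted p = 0.0172), and 98.3% of all tested genes had a lower log2FC. Without 1 library the log2FC ran from 1.55 to 1.79, and the call was lost without blue C (adjusted p = 0.0775), without control A (0.117) or without control B (0.102). No other gene of the reference table overlaps Gnb3.

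Gngt2, the gamma subunit of cones (chromosome 11, 95841772 to 95845734), had 9.26, 10.2 and 8.86 CPM in blue A, B and C, against 12.4 and 8.94 CPM in control A and B. The groups overlapped, and the log2FC was -0.18 (SE 0.17, edgeR adjusted p = 0.682). Its annotated span shares 705 bases with Abi3, a gene known from microglia, which had 10.9, 9.50 and 9.46 CPM in blue A, B and C, against 6.53 and 4.17 CPM in control A and B (log2FC 0.89, edgeR adjusted p = 0.129). Whether reads were counted by strand is not stated, so the value of Gngt2 alone is uncertain: with Abi3 added the log2FC was 0.27, and for Gngt2 alone it was 0.10 without control A and -0.39 without control B. Of 8 microglial marker genes, 0 passed in edgeR, with 5 higher at an unadjusted p under 0.05, 5 called higher in DESeq2 and 1 in limma-voom (over all genes 7.03%, 4.73% and 0.69% were higher by these rules). Summed, these 8 stood at 203 to 304 CPM in blue and 88.4 to 130 CPM in control libraries, with none at 0. Their part in the value of Gngt2 was not tested.

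The phosphodiesterase genes had positive log2FC that did not pass. Pde6c, the catalytic subunit of cones (chromosome 19, 38132781 to 38183955), had 31.0, 39.7 and 37.8 CPM in blue A, B and C, against 32.3 and 24.5 CPM in control A and B. Blue A lay between the controls (log2FC 0.35, SE 0.16, edgeR adjusted p = 0.371), and the log2FC was 0.59 without control A and 0.16 without control B. Pde6h, the inhibitory subunit (chromosome 6, 136952218 to 136963485), had 8.37, 7.13 and 8.56 CPM in blue A, B and C, against 6.25 and 5.18 CPM in control A and B. Here all blue libraries lay above both controls (log2FC 0.49, SE 0.16, edgeR adjusted p = 0.224). 

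For the channel genes no difference beyond the spread between libraries was detected. Cnga3, the main subunit of the cone channel (chromosome 1, 37218241 to 37263384), had 11.3, 8.42 and 8.83 CPM in blue A, B and C, against 10.8 and 8.18 CPM in control A and B. Its log2FC was 0.0072 (SE 0.20, edgeR adjusted p = 0.992), with -0.12 without blue A, 0.25 without control A and -0.18 without control B. Cngb3, the modulating subunit (chromosome 4, 19280850 to 19510623), had 20.4, 33.5 and 24.5 CPM in blue A, B and C, against 40.3 and 20.2 CPM in control A and B. The controls themselves lay 1.997-fold apart and enclosed every blue library. The log2FC was -0.21 (SE 0.33, edgeR adjusted p = 0.818), with 0.40 without control A and -0.63 without control B.

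The rod partners of these genes went one way. Of 9 rod cascade genes compared 8 fell in edgeR, where 1.55% of all tested genes were called lower, and the other, the phosphodiesterase subunit Pde6a, had a log2FC of -0.95 (adjusted p = 0.140). Their log2FC ran from -2.03 to -0.95 with a median of -1.59. Summed, they stood at 3393 to 5818 CPM in blue and 14116 to 14368 CPM in control libraries. The rod arrestin Sag had 923, 1710 and 1260 CPM in blue A, B and C, against 4216 and 4341 CPM in control A and B. Gnat1, the rod transducin alpha subunit, had 828, 1420 and 1191 CPM in blue A, B and C, against 3715 and 3737 CPM in control A and B. In both genes blue A was the lowest and blue B the highest of the blue libraries. The blue libraries of Arr3 and Gnat2 had the same order but spread less. Blue A was the lowest blue library in 8 of the 9 rod genes and in 5 of the 10 cone genes.

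**Figure D2:**
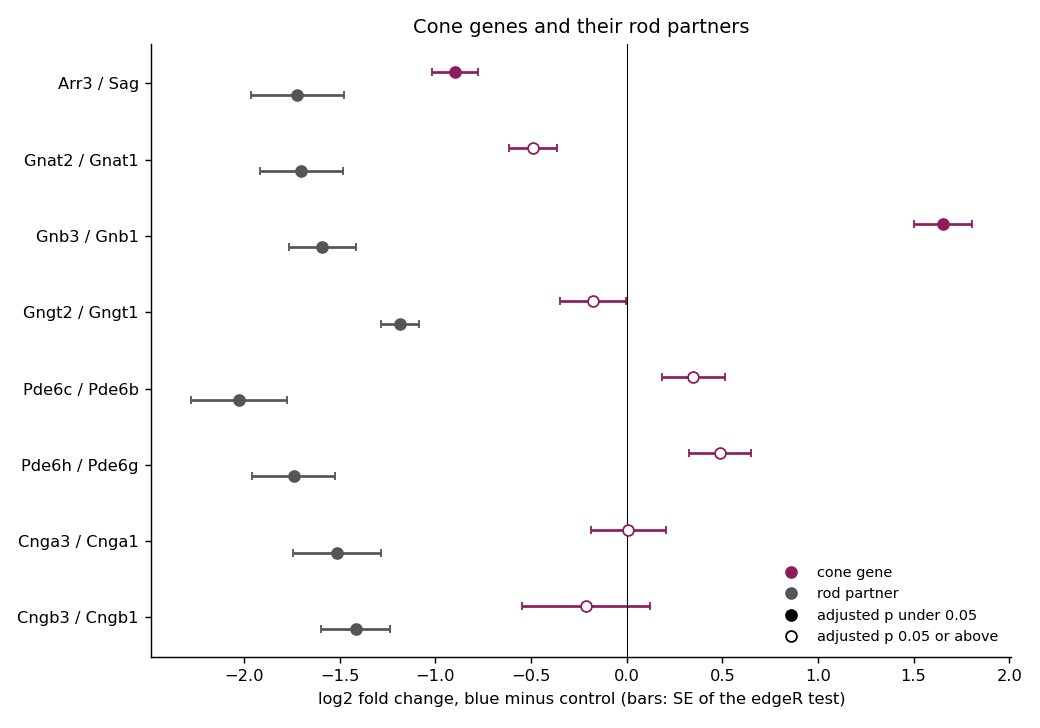
Log2 fold change, blue minus control, of 8 cone genes (upper point of a row) and their rod partners (lower point), with bars for the SE of the edgeR test and filled points for an adjusted p under 0.05. Every rod partner plotted is filled and lies left of 0, from -2.03 (Pde6b) to -1.18 (Gngt1), and each lies left of its cone gene; of the cone genes only Arr3 and Gnb3 are filled.

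The ratio of a cone gene to its rod partner within a library does not depend on how libraries are scaled. In all 8 pairs compared this ratio was higher in each blue library than in either control. The smallest shift was in the arrestins, where the log2 ratio of Arr3 to Sag averaged -5.27 ± 0.38 in blue and -6.15 ± 0.27 in control libraries, a difference of 0.88 (exact two-sided permutation p = 0.200). The other 7 differences reached the smallest p that the test can give, 0.1 (0.114 adjusted over the 8 pairs). Gngt2 to Gngt1 shifted by 1.03, Gnat2 to Gnat1 by 1.26, Cngb3 to Cngb1 by 1.28 and Cnga3 to Cnga1 by 1.56. Pde6h to Pde6g shifted by 2.25 and Pde6c to Pde6b by 2.43. Rods use Pde6a and Pde6b together as catalytic subunits, and Pde6b fell the more. With Pde6a as the partner, a pairing added after the data were seen, Pde6c shifted by 1.35 (exact two-sided permutation p = 0.1), again with every blue library above both controls. These pairs are not independent of each other, since the rod genes fell together. All 9 rod genes lay below both controls in every blue library, so an unchanged gene set over them would also give a higher ratio. Cnga3, with a log2FC of 0.0072, still shifted by 1.56. The share of all genes that would shift in this way was not computed, so the shifts are not shown to be particular to cone genes.

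The beta subunits shifted most. The log2 ratio of Gnb3 to Gnb1 was -1.43, -1.61 and -1.49 in blue A, B and C, against -4.72 and -4.81 in control A and B, a 9.56-fold change in the balance of these transcripts. Here both sides moved: Gnb1, the beta subunit of rods that many other cells also use, fell by 1.59 (SE 0.17, edgeR adjusted p = 0.0194) to 652, 984 and 859 CPM in blue A, B and C, against 2607 and 2402 CPM in control A and B. In each of the other 7 pairs the rod gene had the larger absolute log2FC.

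**Figure D3:**
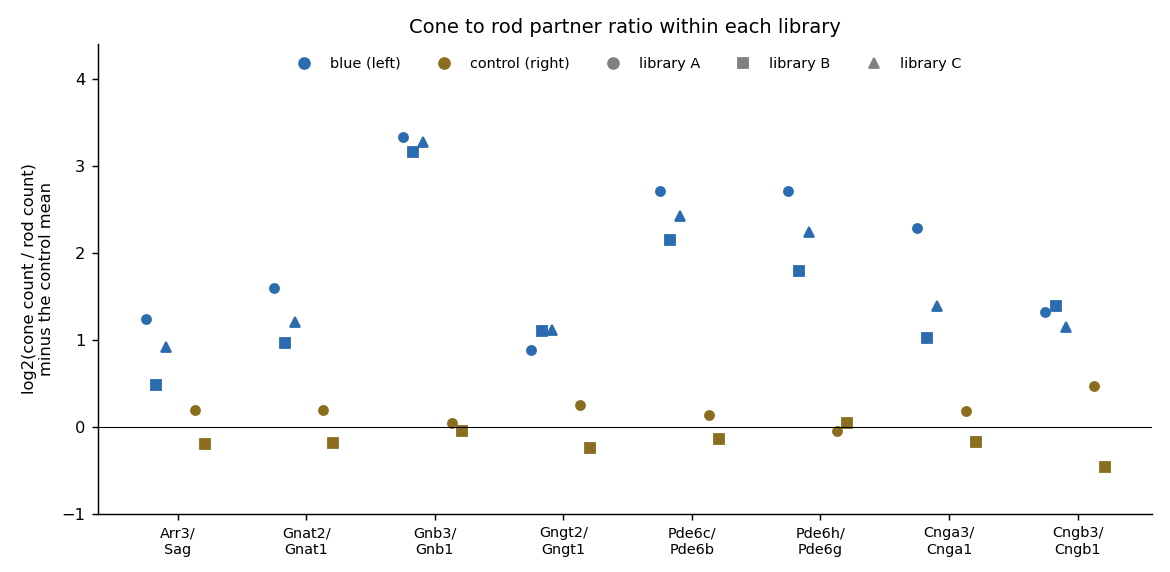
Log2 ratio of estimated counts (pseudocount 1) of 8 cone genes to their rod partners in each library, after subtracting the mean of the 2 controls, with blue libraries left of control libraries within a pair. All blue points lie above all control points in all 8 pairs, by the widest margin for Gnb3/Gnb1 and the narrowest for Arr3/Sag.

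Other genes of cones were compared from a separate list. Of 7 such genes, which include the thyroid hormone receptor Thrb and the retinoid receptor Rxrg of cone identity, 0 passed in edgeR, with 2 lower at an unadjusted p under 0.05, 1 called lower in DESeq2 and 0 in limma-voom (over all genes 9.27%, 4.94% and 1.72% were lower by these rules). The 2 were Kcne2, a potassium channel subunit (log2FC -0.61, SE 0.15, edgeR adjusted p = 0.125), and Thrb (log2FC -0.36, SE 0.10, edgeR adjusted p = 0.166). Thrb had 68.8, 75.2 and 75.8 CPM in blue A, B and C, against 102 and 85.8 CPM in control A and B, which do not overlap. The list's median log2FC was 0.070. Among 13 genes that quench the signal or support the cascade in rods, cones or both, 9 fell in edgeR (1.55% of all tested genes were called lower). The list's median was -1.34. For a gene that rods and cones share, an eyeball library does not separate rod from cone transcript. Rgs9, which speeds the shut-off of transducin and is abundant in cones, fell by 0.79 (SE 0.10, edgeR adjusted p = 0.0283). The guanylate cyclase activators Guca1a and Guca1b fell as well, with log2FC of -1.55 and -1.98 (edgeR adjusted p = 0.0183 and 0.0157). Aipl1, the chaperone of the phosphodiesterase, had a log2FC of -0.35 (edgeR adjusted p = 0.301).

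Because Gnb3 is shared with ON bipolar cells, 10 genes of the ON bipolar cascade were set beside it. In edgeR 0 of them passed, with 2 higher and 1 lower at an unadjusted p under 0.05, 1 called in each direction by DESeq2 and 0 by limma-voom. Over all genes 7.03% were higher and 9.27% lower at that unadjusted p, and DESeq2 called 4.73% and 4.94%. Their log2FC ran from -0.87 to 0.39 with a median of 0.12, beside 1.65 for Gnb3. The part of ON bipolar cells in the value of Gnb3 was not tested. Grm6, which encodes the receptor mGluR6, had 74.6, 92.0 and 94.1 CPM in blue A, B and C, against 76.4 and 73.6 CPM in control A and B (log2FC 0.21, edgeR adjusted p = 0.446). Gng13 and Gnao1, the gamma and alpha partners of Gnb3 in these cells, had log2FC of -0.091 and -0.011 (edgeR adjusted p = 0.644 and 0.965). The 2 with the smallest p were Lrit3, a synaptic protein supplied by photoreceptors (log2FC -0.87, edgeR adjusted p = 0.0737), and Nyx (log2FC 0.39, edgeR adjusted p = 0.155). Across 20 genes of inner retinal neurons the median log2FC was -0.00031 and 1 gene passed. It was the kinase Prkca, which fell by 0.79 (edgeR adjusted p = 0.0218), where 1.55% of all tested genes were called lower. Scaling every library to this list left Gnb3 and Arr3 as the called cone genes.

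**Figure D4:**
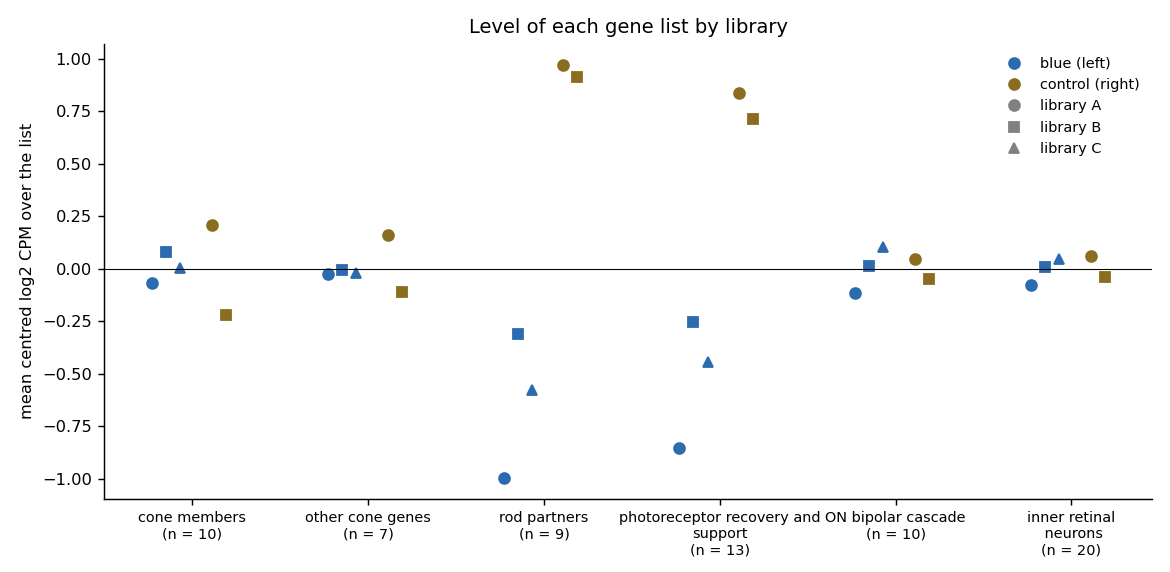
Level of 6 gene lists in each library: the mean over tested members of log2 CPM after subtracting each gene's mean over the 5 libraries, with blue libraries left of control libraries. The cone cascade runs from -0.069 to 0.080 in blue libraries and stands at 0.21 and -0.22 in control A and B, while the rod partners run from -0.996 to -0.31 in blue libraries and stand at 0.97 and 0.91 in the controls.

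Markers of the other parts of the eyeball had the following levels beside these results. Of 8 Muller glia genes 1 rose in edgeR (0.664% of all tested genes), the glutamate transporter Slc1a3, by 0.87 (SE 0.074, edgeR adjusted p = 0.0146). The list's median log2FC was 0.49. At an unadjusted p under 0.05, 6 of the 8 were higher and 1 was lower (7.03% and 9.27% of all genes). DESeq2 called these numbers too (4.73% and 4.94% of all genes), and limma-voom called 1 in each direction (0.69% and 1.72% of all genes). All blue libraries lay above both controls for 6 of the 8 (15.6% of all tested genes). The lower gene was Glul, glutamine synthetase (log2FC -0.48, edgeR adjusted p = 0.0537). In the lists of 6 pigment epithelium, 8 lens and 8 skeletal muscle genes 0 passed in edgeR and 0 in limma-voom. At an unadjusted p under 0.05, 1, 0 and 0 were higher and 0 lower (7.03% and 9.27% of all genes). DESeq2 called 1, 0 and 0 higher and 0 lower (4.73% and 4.94% of all genes). The medians of these lists, in the same order, were 0.080, 0.0045 and -0.18. Muscle genes summed to 648 to 1198 CPM in blue and 611 to 1245 CPM in control libraries, with control B above control A for all 8 genes, the opposite order to the cone genes. Of 5 red blood cell genes 4 were tested, and 0 were called in edgeR, DESeq2 or limma-voom. At an unadjusted p under 0.05, 1 was higher and 1 lower, beside 7.03% and 9.27% of all genes. In this list 4 genes, alpha and beta globins with near-identical copies within each type, stood at 0 in some library, so their values are uncertain. The part of these tissues in the cone values was not tested.

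Among the cone genes, likeness over the 5 libraries was measured as the root mean square difference of log2 CPM centred on each gene's mean. The closest pair was Cnga3 and Opn1mw, at 0.16, and the farthest apart were Arr3 and Gnb3, at 1.25. The neighbours named next were picked by this likeness over the same libraries, so their fold changes repeat that of the cone gene by selection. Over all tested genes other than Gm- and Rik-type symbols, the 2 nearest to Arr3 were Lyrm9 (0.027) and BC046251 (0.036), both of which fell (log2FC -0.90 and -0.90, edgeR adjusted p = 0.0295 and 0.0360). The 3 nearest to Gnb3 were Agtpbp1 (0.10), Cckbr (0.13) and Sh2d1b1 (0.13). Agtpbp1, an enzyme that trims glutamates from tubulin, rose by 1.46 (edgeR adjusted p = 0.0183) and Cckbr, a cholecystokinin receptor, by 1.75 (edgeR adjusted p = 0.0299), whereas Sh2d1b1 had a log2FC of 1.72 (edgeR adjusted p = 0.165). The nearest to Opn1sw was Cystm1 (0.050) and the nearest to Opn1mw was Nrgn (0.045).

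Start-site windows of the cone genes were read for the core of the motif bound by CRX, the homeodomain factor of photoreceptors. Windows of 300 bases, 250 before and 50 after an annotated start, were in the RefSeq table (GRCm38.p6) for 6 of the 10 genes. Gnb3, Gngt2, Pde6c and Cngb3 had no window. The window of Gnat2 lies inside the span given above, which begins at 108086788, so its annotated start is an internal one. The windows of Arr3 (chrX:100605247-100605546, plus strand), Gnat2 (chr3:108092816-108093115, plus strand) and Opn1sw (chr6:29380464-29380763, minus strand) are shown, because these 3 genes had the lowest log2FC of the cascade and, among the 6, were those whose window held the core TAATC on either strand, which is in capitals:
Arr3: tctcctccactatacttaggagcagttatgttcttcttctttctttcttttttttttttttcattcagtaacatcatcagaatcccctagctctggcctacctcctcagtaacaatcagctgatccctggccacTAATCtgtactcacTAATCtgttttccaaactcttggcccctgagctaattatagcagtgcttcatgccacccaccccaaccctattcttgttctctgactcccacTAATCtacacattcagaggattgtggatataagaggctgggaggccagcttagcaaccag
Gnat2: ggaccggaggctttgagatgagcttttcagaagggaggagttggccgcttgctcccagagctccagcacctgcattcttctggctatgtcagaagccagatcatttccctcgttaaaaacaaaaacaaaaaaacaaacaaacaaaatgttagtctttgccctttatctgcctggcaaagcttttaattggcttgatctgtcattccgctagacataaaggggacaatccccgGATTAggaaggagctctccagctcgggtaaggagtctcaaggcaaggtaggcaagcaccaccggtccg
Opn1sw: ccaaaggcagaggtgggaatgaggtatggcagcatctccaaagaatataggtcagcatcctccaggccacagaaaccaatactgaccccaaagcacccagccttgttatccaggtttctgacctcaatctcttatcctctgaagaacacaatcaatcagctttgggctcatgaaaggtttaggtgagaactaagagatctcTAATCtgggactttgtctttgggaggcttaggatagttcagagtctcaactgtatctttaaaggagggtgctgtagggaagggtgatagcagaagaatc

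The window of Arr3 held the core at 3 places, beginning 116, 102 and 10 bases before the start. Those of Gnat2 and Opn1sw held it once, 18 and 49 bases before the start, in Gnat2 as the reverse complement GATTA. The windows of Opn1mw, Pde6h and Cnga3 did not contain these letters. The core was held by 22.0% of all 32851 windows. The longer form TAATCC, which contains the core, was in 1 of the 6 genes, Gnat2, and in 7.06% of all windows. The core was taken up only after the fold changes and the matches of this longer form had been seen. Its presence in the genes of lowest log2FC is therefore drawn from the same data and is no test of a link. Of the genes whose windows are shown, only Arr3 passed in edgeR. AGGTCA, a motif of nuclear receptors such as the thyroid hormone and retinoid receptors, was found on either strand in 1 of the 6 genes, Opn1sw, and in 16.3% of all windows. These matches describe the letters of the windows and are not binding sites.

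**Figure D5:**
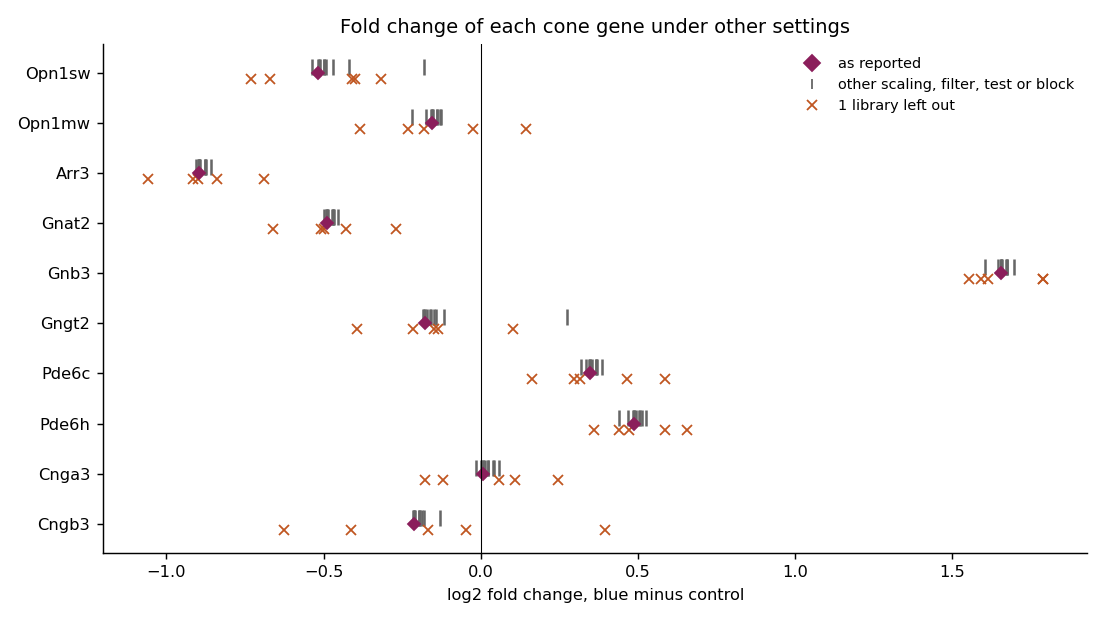
Log2 fold change, blue minus control, of each cone gene as reported (diamond), under another scaling, filter, test or replicate block or with overlapping genes summed (vertical ticks), and with 1 library left out (crosses). Gnb3 stays between 1.55 and 1.79 and Arr3 between -1.06 and -0.69, while Opn1mw, Gngt2, Cnga3 and Cngb3 have points on both sides of 0.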

How the data were processed

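RNA of eyeballs was depleted of ribosomal RNA with probes, fragmented and primed at random, per the labels' protocols. HISAT2, StringTie, bcl2fastq 2.0, limma, DESeq2 and mm10 are listed, with no roles, in the submitters' processing notes. The values of the deposited mRNA table are treated as estimated counts per symbol that the authors left unnormalised, since totals differ and StringTie is named. They are whole numbers already, so rounding changed nothing, and they may not equal sequenced fragments, so no counting intervals are given. The miRNA table was not used here. Column names were matched to sample titles, and groups come from the source name.

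All genes were fitted together with edgeR 4.0.16 in R 4.3.3 (TMM, filterByExpr, quasi-likelihood F-test, threshold 0.05), an approach tested on simulated data. Ratios used an exact permutation test over libraries. The cone genes, the lists and the rule for named genes (all members, rod partners, overlapping genes, the 2 genes of smallest p in a list and the 3 nearest profiles of a member, not all of which are printed) were chosen with earlier results of these data known, and the motifs after the fold changes were seen (the core TAATC also after the matches of TAATCC and other motifs). Results for some genes that the rule covers are not reported here. Alternatives were other scalings, filters, DESeq2 1.42.0, limma-voom (limma 3.58.1), values divided by 4, overlapping genes summed, a replicate block, and 1 library left out at a time. Positions come from RefSeq on GRCm38.p6, the assembly called mm10.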

Additional observations from a re-analysis of the deposited data

How the results depend on the processing

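Of 150 refits of single cone genes, 131 kept the direction and the side of the threshold, 11 lost a call, 1 gained a call and 7 changed sign. The sign changes were those of Opn1mw (0.14), Gngt2 (0.10) and Cngb3 (0.40) without control A, of Gngt2 with Abi3 summed (0.27), and of Cnga3 in limma-voom (-0.015), without blue A (-0.12) and without control B (-0.18); each of these genes was also short of the threshold as reported. With 1 library left out Opn1mw ran from -0.39 to 0.14, Gngt2 from -0.39 to 0.10, Cnga3 from -0.18 to 0.25 and Cngb3 from -0.63 to 0.40. As reported, 421 genes were called; 274 were called with library totals as the only scaling (where 0 cone genes were lower in edgeR) and 1729 in DESeq2 (where 2 cone genes were lower). With 1 library left out the count ran from 0 to 311, the cone genes called higher from 0 to 1, and 0 were called lower in each such edgeR fit, where the unadjusted p of Arr3 ran up to 0.00173; in edgeR 0 genes passed without control B, where 2872 had an unadjusted p under 0.05. A lone remaining control was taken to vary as much as the blue group does. The letters A, B and C are not said to mark a shared animal or batch, and deviations of same-lettered libraries from their group means correlated at -0.18 (A) and -0.15 (B) across genes. The deviations of control A and control B are mirror images. Blue A with control B therefore gave 0.18 and blue B with control A 0.15, and these values cannot show whether the letters mark a pairing. With the letter as a replicate block edgeR called 0 genes and 0 cone genes in either direction, with 1455 genes at an unadjusted p under 0.05. The ratio of Opn1sw to Opn1mw differed by -0.72 to -0.20 with 1 library left out. All 8 cone to rod ratios kept a positive difference in each such refit, and the fall of the rod genes enters each of them.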
